A study of Homo sapiens
Mus musculus with 2 samples.

Results

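Mucins are among the most heavily glycosylated proteins of the body, and the enzyme families that assemble their sugar chains, together with relatives that act on N-glycans, glycolipids and glycosaminoglycans, are described here in the mouse colon. The set holds 72 genes for glycosyltransferases and glycan sulfotransferases, of 25504 genes in the deposited tables. They were taken by symbol from the families Galnt, B3galt, B4galt, B3gnt, C1galt, Gcnt, St3gal, St6gal, St8sia, Fut and Chst, with A4gnt and C1galt1c1, and needed at least 20 UMIs (unique molecular identifiers, each marking 1 captured RNA molecule) over both libraries. Of 81 genes that fitted by symbol, 9 fell under that minimum. Just inside were Chst14 with 21 UMIs, St3gal5 with 23 and Galnt15 with 25, and just outside were Gcnt7 with 16, Fut1 with 17 and Chst1 with 18. All members together held 67491 UMIs, 0.538% of those in the tables, with a median of 203 per gene.

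The cells were colonic epithelial cells of 1 untreated mouse of strain C57Bl6 and genotype WT, whose age the labels do not give. K562, a human leukaemia cell line, had been mixed into the suspension and was not analysed here. Different cells of the same animal were captured in droplets as 2 libraries, replicates 1 and 2, so that there is 1 group and no condition to compare. The comparisons are therefore between kinds of cells within the libraries. Each p-value measures only counting error and how far differences between classes vary between these libraries, with that variation estimated partly from all genes together. The variation may be technical.

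Sugar chains are built in the Golgi apparatus one residue at a time, each step by its own enzyme. In mucin-type O-glycosylation a Galnt enzyme places N-acetylgalactosamine (GalNAc) on a serine or threonine. C1galt1 then adds galactose to give core 1, or B3gnt6 adds N-acetylglucosamine (GlcNAc) to give core 3, and Gcnt enzymes add a branch. The chains are lengthened with galactose and GlcNAc and finished with sialic acid, fucose or sulfate. Goblet cells fill the mucus layer of the colon with the glycosylated mucin Muc2, deep crypt secretory cells sit between the stem cells at the crypt base, and colonocytes absorb salt and water and carry a glycocalyx on their surface.

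Replicate 1 held 1738 barcodes with 8602490 UMIs and replicate 2 held 664 with 3951918. Barcodes were clustered on genes that exclude all members and named from marker genes, and 4 classes were summed per library, goblet-like (285 and 71 barcodes in replicates 1 and 2), deep crypt secretory-like (286 and 87), crypt-like (247 and 103) and colonocyte-like (402 and 118). The sums held 550493 to 2563376 UMIs. Levels are given as CPM (UMIs per 1000000 UMIs) after TMM scaling, a correction for differences in RNA composition, and are called scaled CPM. Levels given for elsewhere are only those of the other sums of these 4 classes. Many markers followed the names. This is no separate check, since the markers were among the clustering genes and gave the names. The goblet gene Clca1 stood at 32360 and 20130 scaled CPM in goblet-like sums and at most 877 elsewhere. Reg4 stood at 5767 and 4568 in deep crypt secretory-like sums and at most 1292 elsewhere. Ube2c stood at 264 and 173 in crypt-like sums and at most 42.1 elsewhere, and Car4 at 3540 and 2966 in colonocyte-like sums and at most 117 elsewhere. Others did not. Clca3a1 of the goblet list stood at 4.68 and 5.64 in goblet-like and 8.37 to 12.4 in crypt-like and colonocyte-like sums. Slc12a2 of the crypt list stood at 637 and 428 in crypt-like and 651 and 529 in deep crypt secretory-like sums. The colonocyte marker Lypd8 also reached 9218 and 6610 in goblet-like sums. The secretory classes shared some markers. Muc2 stood at 33430 and 23110 in goblet-like and 21550 and 15780 in deep crypt secretory-like sums. Agr2 overlapped, at 5021 and 5030 against 4131 and 5360. Further, 1 goblet-like cluster (148 barcodes, led by Scin, Sval1 and Best2) also scored high for deep crypt secretory markers. The crypt-like class joins a cluster of 272 barcodes led by Csrp2 and Stmn1 with a mitotic one of 78 barcodes. The mitotic cluster scored higher for deep crypt secretory than for crypt markers (2.29 against 2.14, as mean log2 level relative to the mean of the clusters) and took its name because scores were read as a share of the highest score of each class. The median share of mitochondrially encoded UMIs was higher in replicate 2 in every class, for example 3.09% and 6.23% in goblet-like and 5.47% and 11.1% in colonocyte-like barcodes. In the same sums, 15 lymphocyte and plasma cell markers came to between 65.0 and 179 scaled CPM, against 22010 and 13390 CPM in lymphocyte-like barcodes, and Cd3e, a defining T cell gene, stood at 0 to 2.29. Enteroendocrine markers came to between 28.7 and 88.4, and tuft cell markers to between 46.9 and 209, highest in goblet-like sums (159 and 209). Lymphocyte-like barcodes in turn held 8447 and 6787 CPM of goblet markers. Values of lymphocyte-like barcodes are CPM without TMM scaling throughout. The part of such transcripts from other kinds of cells in the results was not tested.

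Summed over all 72 members, the level was 9077 and 6683 scaled CPM in goblet-like, 7426 and 6431 in deep crypt secretory-like, 3064 and 2902 in crypt-like and 5769 and 4623 in colonocyte-like cells. Both secretory classes lay above the other classes in each library, and crypt-like cells lay lowest in each. Of the members, 68 had enough UMIs in the sums to be tested with 8069 genes in all (edgeR's quasi-likelihood test with the library as a block, Benjamini-Hochberg adjusted p under 0.05), and Chst14, St3gal5, Chst7 and Galnt15 did not. A class is compared with the mean of the other 3 classes, a fold change is a difference on the log2 scale with its standard error, and n = 2 libraries throughout. A call against that mean can come from a high or low level in another class, and need not hold against each class. The comparisons share the same sums, so that they are not independent of each other.

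In goblet-like cells 20 members were higher and 6 lower, against a background of 16.3% of all genes tested called in either direction, 9.94% higher and 6.33% lower. The median log2 difference was 0.30 over the members and -0.01 over all genes. In deep crypt secretory-like cells 27 were higher and 9 lower (background 23.8%, 13.4% higher and 10.4% lower, medians 0.27 and 0.06). In crypt-like cells 2 were higher and 27 lower (background 27%, 13.6% higher and 13.4% lower, medians -0.61 and -0.03), and in colonocyte-like cells 15 were higher and 24 lower (background 39%, 20.3% higher and 18.7% lower, medians -0.18 and -0.00). Without TMM scaling the counts were 15 and 8, 30 and 6, 4 and 19, and 13 and 28, while that change moved the median of all genes by -0.25, 0.22, 0.34 and -0.30 in the same order. The majority direction was the same under both scalings in these 4 comparisons.

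**Figure D1:**
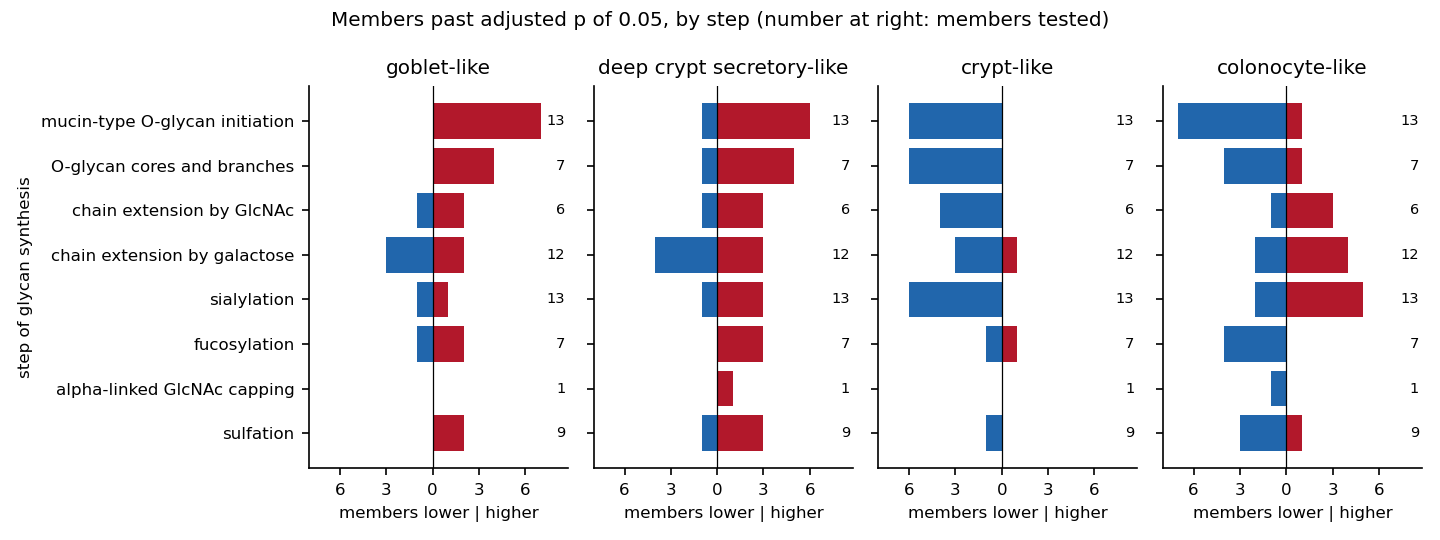
Members past an adjusted p of 0.05 by step of glycan synthesis, with bars to the right for members higher and to the left for members lower in each class than in the mean of the other 3 classes, and the number tested at the right of each row. Called initiation and core enzymes lie mostly to the right in both secretory classes and mostly to the left in the other classes, while sialylation extends to the right in colonocyte-like cells.

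About as many initiation genes were called as not in each secretory class, and most calls were higher. Of 13 Galnt genes tested, 7 were higher and 0 lower in goblet-like cells, and 6 were higher and 1 lower in deep crypt secretory-like cells. In crypt-like cells 0 were higher and 6 lower, and in colonocyte-like cells 1 was higher and 7 lower. The shares called were 53.8%, 53.8%, 46.2% and 61.5% in this order of classes, against 16.3%, 23.8%, 27% and 39% of all genes. Galnt7, whose enzyme acts on peptides that already carry GalNAc, stood at 910 and 662 scaled CPM in goblet-like and 754 and 608 in deep crypt secretory-like cells, against 247 and 278 in crypt-like and 201 and 160 in colonocyte-like cells. The lowest secretory value of Galnt7 was thus above the highest value of the other classes. Galnt12 (610 and 346 in goblet-like, 476 and 385 in deep crypt secretory-like, 145 and 108 in crypt-like, 190 and 139 in colonocyte-like cells) and Galnt3 (187 and 126, 220 and 124, 63.9 and 50.2, 46.0 and 45.7) had the same arrangement.

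Galnt5 showed the widest span of these genes. It stood at 87.3 and 63.9 scaled CPM in goblet-like cells, 73.5 and 49.1 in deep crypt secretory-like cells, 22.3 and 17.7 in crypt-like cells and 4.45 and 4.57 in colonocyte-like cells. The groups followed this order without overlap except between the secretory classes, and the log2 difference was 2.11 ± 0.23 in goblet-like, 1.72 ± 0.23 in deep crypt secretory-like and -3.38 ± 0.34 in colonocyte-like cells. Galnt1 differed between the secretory classes, at 274 and 265 scaled CPM in goblet-like against 156 and 142 in deep crypt secretory-like cells (log2 difference 0.85 ± 0.18). It was the 1 of 13 Galnt genes called in that comparison, while without TMM scaling Galnt3 (-0.50) and Galnt4 (-0.57) were called too, lower in goblet-like cells. Galnt14 went the other way from its family, higher in colonocyte-like cells by 1.12 ± 0.31 and lower in deep crypt secretory-like cells by a log2 difference of -1.33 ± 0.41. Galnt6 (0.75 ± 0.23 in goblet-like cells) has an antisense neighbour, Galnt6os, and the strand of counting is not given in the sources used here, so that its count is uncertain. That call was lost without TMM scaling (0.50).

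**Figure D2:**
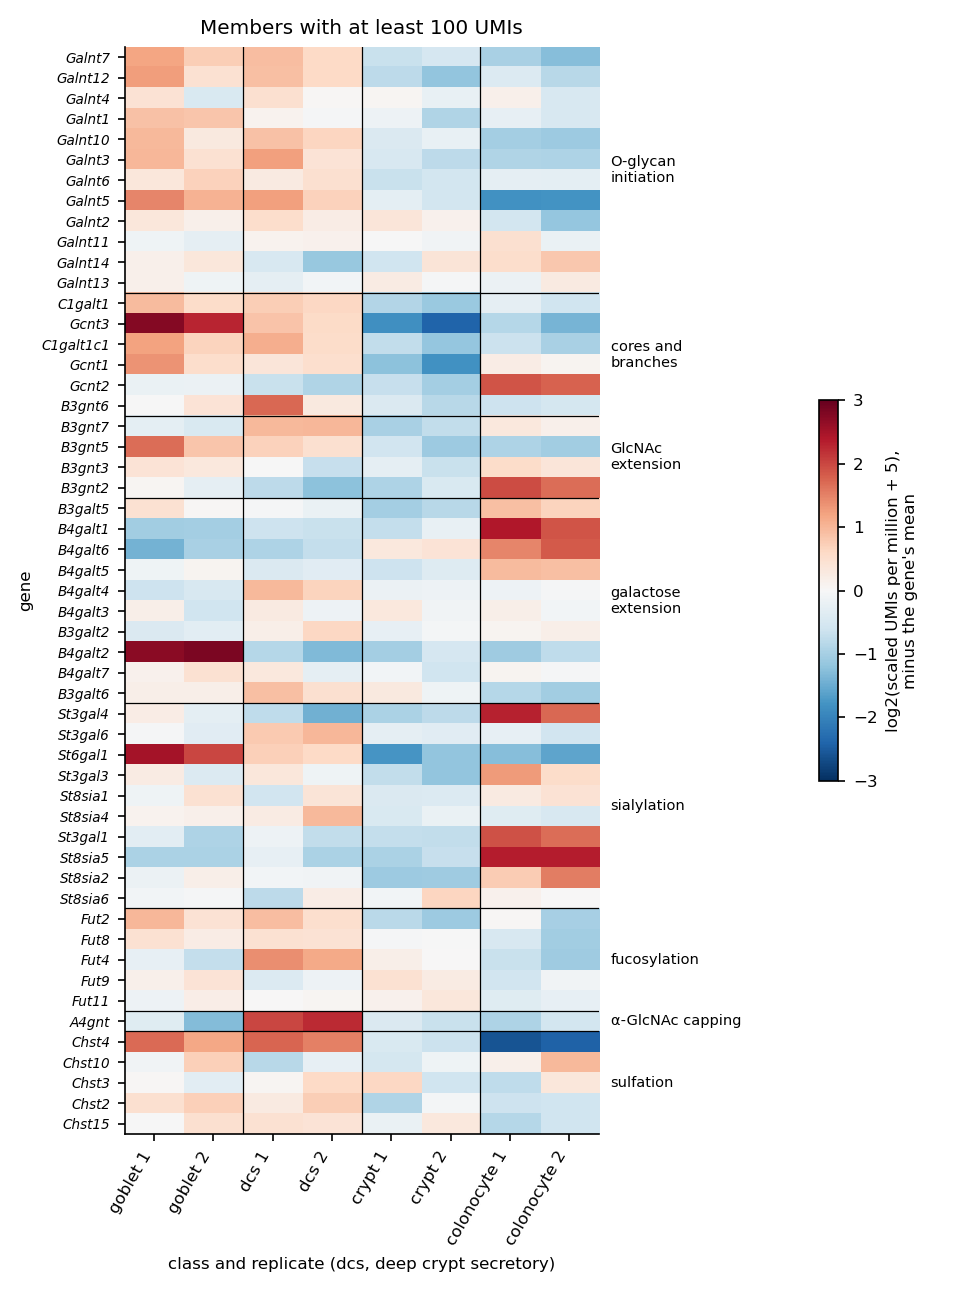
Relative level of the 53 members with at least 100 UMIs in the 8 sums, as log2 of scaled CPM plus 5 minus the mean of the gene, ordered by step and by UMIs within a step. Red blocks on the left mark initiation and core genes in goblet-like and deep crypt secretory-like (dcs) cells, and red on the right marks B3gnt2, B4galt1, St3gal4, St3gal1 and St8sia5 in colonocyte-like cells.

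Most core and branch genes were called higher in the secretory classes and lower in crypt-like cells. Of 7 genes tested, 4 were higher in goblet-like, 5 higher and 1 lower in deep crypt secretory-like, and 6 lower in crypt-like cells, while colonocyte-like cells had 1 higher and 4 lower. The shares called were 57.1%, 85.7%, 85.7% and 71.4% in this order, against 16.3%, 23.8%, 27% and 39% of all genes. C1galt1, the core 1 synthase, stood at 621 and 466 scaled CPM in goblet-like and 530 and 493 in deep crypt secretory-like cells, against 172 and 143 in crypt-like and 263 and 209 in colonocyte-like cells. C1galt1c1, the chaperone that C1galt1 protein needs to fold, stood at 384 and 261, 351 and 243, 96.1 and 70.7, and 103 and 81.1 in the same order, with the levels in crypt-like and colonocyte-like cells overlapping. The secretory classes did not differ detectably in either gene, with log2 differences of 0.09 ± 0.16 for C1galt1 and 0.12 ± 0.17 for C1galt1c1 (goblet-like minus deep crypt secretory-like).

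Branching enzymes divided the classes further. Gcnt3, which makes the core 2 and core 4 branches of mucins, stood at 1175 and 841 scaled CPM in goblet-like cells, 309 and 256 in deep crypt secretory-like cells, 91.6 and 61.7 in colonocyte-like cells and 43.9 and 27.9 in crypt-like cells, and no class overlapped its neighbour in that order. Its log2 difference was 3.44 ± 0.12 in goblet-like cells (adjusted p = 1.89e-65, edgeR) and -2.95 ± 0.18 in crypt-like cells. Gcnt3 also gave 4 UMIs in the lymphocyte-like barcodes of replicate 1, or 49.9 CPM without TMM scaling, where the gene should be silent. Lymphocyte-like barcodes held more of the goblet gene Zg16 than crypt-like sums did (4367 and 3270 CPM against 951 and 875 scaled CPM). That Gcnt3 value is therefore no measure of background in crypt-like cells. The part of transcripts from other kinds of cells in the crypt-like level was not tested. The lymphocyte-like barcodes of replicate 2 hold so few UMIs that a count of 0 allows up to 185 CPM. Gcnt1, another core 2 enzyme, stood at 123 and 67.7 in goblet-like, 59.9 and 66.0 in deep crypt secretory-like, 53.5 and 48.0 in colonocyte-like and 16.4 and 9.30 in crypt-like cells, lower in the last by a log2 difference of -2.34 ± 0.25.

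Gcnt2 and B3gnt6 departed from the other core and branch genes. Gcnt2, which adds the I branch to poly-N-acetyllactosamine chains, stood at 39.1 and 35.4 scaled CPM in colonocyte-like cells and at no more than 5.64 in any other sum (log2 difference 3.73 ± 0.34). Lymphocyte-like barcodes, which are in none of the sums, gave 3 and 2 UMIs of Gcnt2, or 37.4 and 123 CPM without TMM scaling. Gcnt2 was also called lower in deep crypt secretory-like cells (-1.73 ± 0.64), a call lost under 6 of the alternatives tried, against a mean that holds the colonocyte-like level. B3gnt6, the core 3 synthase, stood at 35.2 in replicate 1 and 9.83 in replicate 2 in deep crypt secretory-like cells, against 7.02 and 11.3 in goblet-like, 4.10 and 1.86 in crypt-like and 2.97 and 3.43 in colonocyte-like cells. Its log2 difference was 2.51 ± 0.36 in deep crypt secretory-like cells. With a prior count of 2 added, which pulls genes with few UMIs toward 0, the ratio was 2.59 in replicate 1 alone and 0.91 in replicate 2 alone. Between the secretory classes B3gnt6 passed the test (-1.60 ± 0.46), but replicate 2 alone, with the same prior count, gave 0.17, in the other direction.

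**Figure D3:**
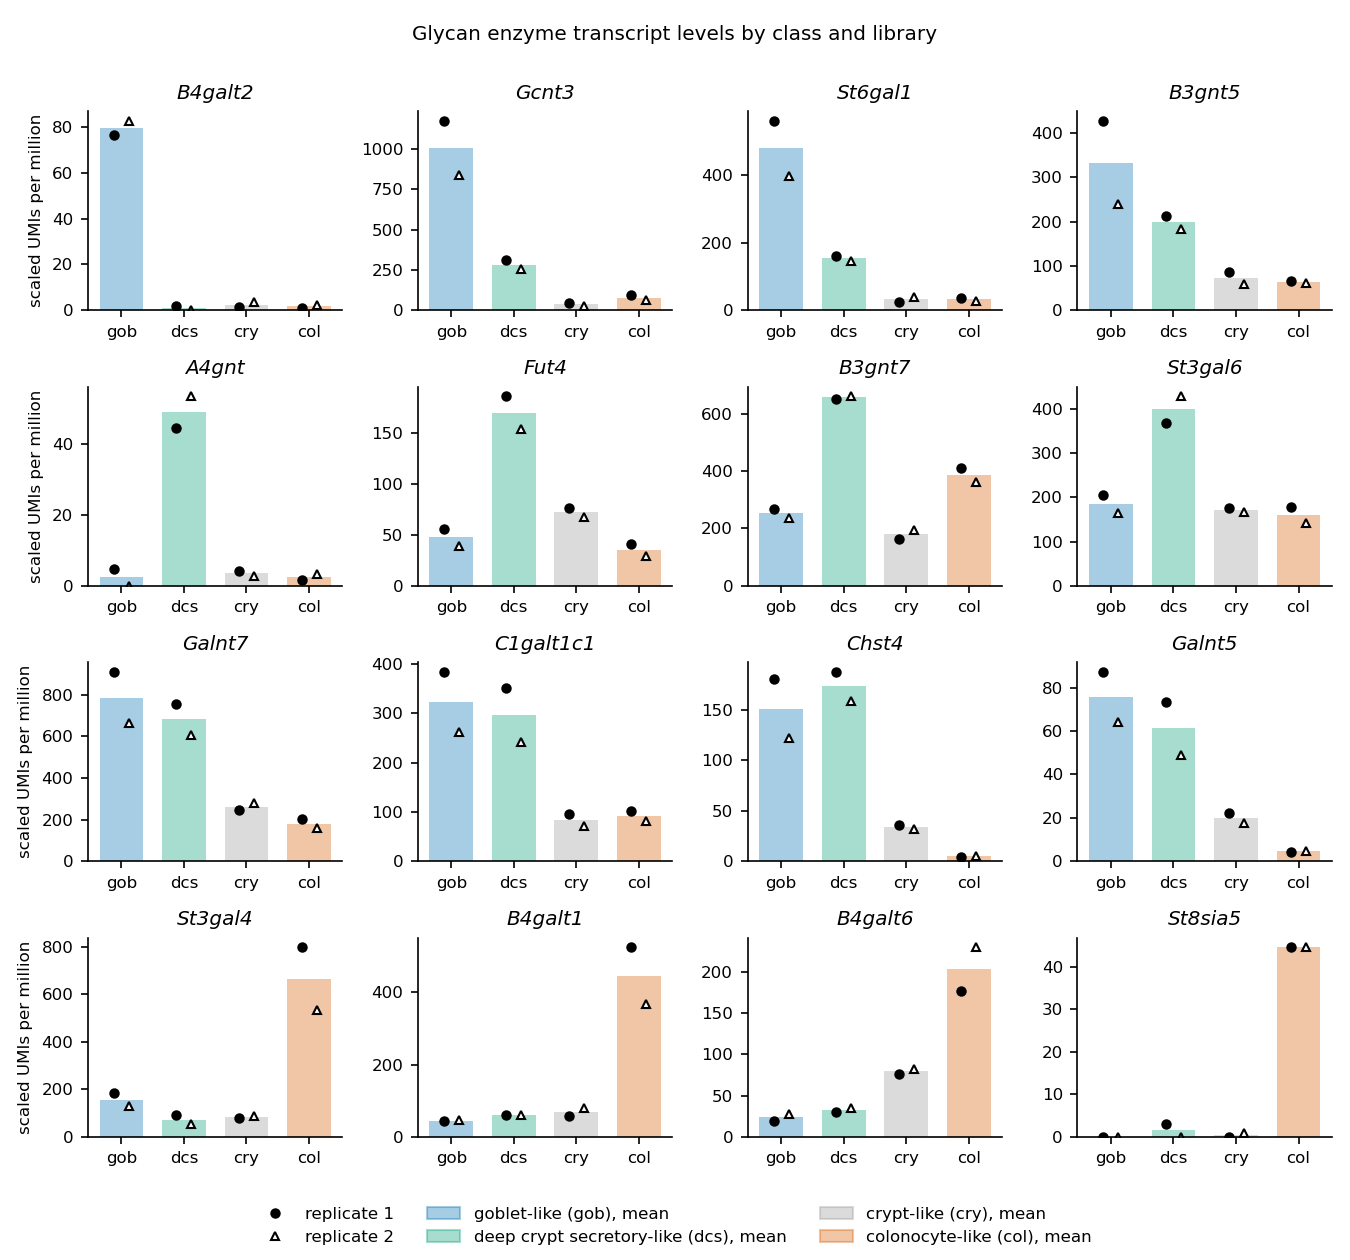
Scaled CPM of 16 members in goblet-like, deep crypt secretory-like, crypt-like and colonocyte-like cells, with circles for replicate 1, triangles for replicate 2 and bars for the mean of both libraries, on a linear axis per gene. B4galt2 stands alone in goblet-like, A4gnt in deep crypt secretory-like and St8sia5 in colonocyte-like cells, while Galnt7, C1galt1c1, Chst4 and Galnt5 are high in both secretory classes.

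Chain extension differed from gene to gene and not as a step. Of 6 genes that add GlcNAc, 2 were higher and 1 lower in goblet-like cells, 3 higher and 1 lower in deep crypt secretory-like cells, 4 lower in crypt-like cells, and 3 higher and 1 lower in colonocyte-like cells. The shares called were 50%, 66.7%, 66.7% and 66.7% in this order, against 16.3%, 23.8%, 27% and 39% of all genes. Without TMM scaling the counts turned to 1 and 2 in goblet-like and 1 and 1 in colonocyte-like cells. B3gnt7 stood at 653 and 661 scaled CPM in deep crypt secretory-like cells, 409 and 363 in colonocyte-like, 268 and 237 in goblet-like and 165 and 195 in crypt-like cells, with no overlap between neighbours. B3gnt5, which starts the lacto-series glycolipids, had another order, with 428 and 239 in goblet-like, 214 and 184 in deep crypt secretory-like, 86.1 and 58.6 in crypt-like and 66.3 and 60.6 in colonocyte-like cells. Its levels in crypt-like and colonocyte-like cells overlapped. B3gnt2, a poly-N-acetyllactosamine synthase, was highest in colonocyte-like cells, at 168 and 137 against at most 41.3 elsewhere (log2 difference 2.62 ± 0.18, and -1.46 ± 0.26 in deep crypt secretory-like cells). The latter value is against a mean that holds the colonocyte-like level. For B3gnt2, deep crypt secretory-like (21.0 and 14.0) and crypt-like cells (18.8 and 27.9) overlapped. B3gnt9 had few UMIs, 58 in all, and stood at 9.88 and 15.4 in deep crypt secretory-like cells and at most 4.65 elsewhere (2.24 ± 0.49).

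Among the galactosyltransferases, members of one family were highest in different classes. B4galt2, one of the enzymes that make N-acetyllactosamine, stood at 76.4 and 82.7 scaled CPM in goblet-like cells and at 0 to 3.72 in the other sums, a pooled ratio of 48.2 to the other classes (exact 95% interval 27.3 to 92.8, for counting error only) and a log2 difference of 5.55 ± 0.33 (adjusted p = 1.845e-36, edgeR). The sums held 98 and 44 UMIs in goblet-like, 3 and 0 in deep crypt secretory-like, 2 and 4 in crypt-like and 2 and 2 in colonocyte-like cells. The calls as lower in colonocyte-like (-2.06 ± 0.73) and deep crypt secretory-like cells (-2.21 ± 0.77), which are among the counts of lower members, are against a mean that holds the goblet-like level, and show no difference among these 3 classes. The latter value turned to 0.53 when the goblet-like cluster led by Scin was counted as deep crypt secretory-like. B4galt1, which makes the same linkage, stood at 524 and 368 in colonocyte-like cells and between 43.7 and 80.9 elsewhere (2.997 ± 0.14 in colonocyte-like, -1.47 ± 0.21 in goblet-like cells). The 2 genes were thus highest in different classes in both libraries. Lymphocyte-like barcodes, which are in none of the sums, gave 15 UMIs of B4galt1 in replicate 1, or 187 CPM without TMM scaling, and 0 in replicate 2. B4galt4 was highest in deep crypt secretory-like cells (80.3 and 64.6, against 23.4 to 37.7 elsewhere, 1.26 ± 0.20).

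B4galt6, a lactosylceramide synthase, stood at 177 and 230 scaled CPM in colonocyte-like, 76.2 and 82.8 in crypt-like, 29.6 and 35.1 in deep crypt secretory-like and 19.5 and 28.2 in goblet-like cells. It was 1 of the 2 members higher in crypt-like cells than in the mean of the other classes (0.59 ± 0.18), the other being Fut9 (0.57 ± 0.20), and was lowest in goblet-like cells (-1.80 ± 0.25). B4galt5, of the same activity, was also highest in colonocyte-like cells (98.99 and 95.96 against 30.5 to 52.7 elsewhere). B3galt5, which makes type 1 chains, stood at 614 and 523 in colonocyte-like, 452 and 333 in goblet-like, 316 and 282 in deep crypt secretory-like and 159 and 182 in crypt-like cells. B3galt6, an enzyme of the linker that joins glycosaminoglycans to proteins, was lower in colonocyte-like cells, at 1.98 and 1.14 against 6.51 to 18.5 elsewhere (-2.65 ± 0.55).

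Of 13 sialyltransferase genes tested, 1 was higher and 1 lower in goblet-like cells, 3 were higher and 1 lower in deep crypt secretory-like cells, and 6 were lower and 0 higher in crypt-like cells. The share called was near that of all genes in goblet-like cells (15.4% against 16.3%). It was above that share in deep crypt secretory-like (30.8% against 23.8%) and crypt-like cells (46.2% against 27%). St6gal1, which adds α2,6-linked sialic acid to N-glycans, stood at 561 and 397 scaled CPM in goblet-like cells, 161 and 146 in deep crypt secretory-like cells, 36.6 and 28.6 in colonocyte-like cells and 24.6 and 39.1 in crypt-like cells. Both secretory classes stood apart from the others, which overlapped, and the log2 difference was 3.16 ± 0.14 in goblet-like cells (adjusted p = 1.185e-51, edgeR) and 0.96 ± 0.16 in deep crypt secretory-like cells. In crypt-like cells St6gal1 lay at -2.13 ± 0.20. The lymphocyte-like barcodes of replicate 1 gave 4 UMIs of St6gal1, or 49.9 CPM without TMM scaling. The class sums of crypt-like and colonocyte-like cells were no higher than that value, which rests on few UMIs and is no measure of their background. Within crypt-like cells the mitotic cluster stood higher, at 68.0 and 117 scaled CPM of St6gal1, and the cluster led by Csrp2 at 12.6 and 13.4. St3gal6, which adds α2,3-linked sialic acid, was highest in deep crypt secretory-like cells, at 370 and 430 against 142 to 207 elsewhere (1.20 ± 0.13).

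In colonocyte-like cells 5 sialyltransferases were higher and 2 lower, 53.8% called against 39% of all genes. St3gal4, another α2,3-sialyltransferase, stood at 797 and 532 scaled CPM there, 186 and 128 in goblet-like, 79.7 and 89.3 in crypt-like and 90.8 and 54.8 in deep crypt secretory-like cells (2.74 ± 0.13, and -1.48 ± 0.17 in deep crypt secretory-like cells). The latter value is against a mean that holds the colonocyte-like level, and deep crypt secretory-like and crypt-like cells overlapped. St3gal1, which sialylates core 1, stood at 44.1 and 36.6 in colonocyte-like cells against 1.88 to 6.79 elsewhere (3.32 ± 0.31). St8sia5, which lengthens sialic acid chains on gangliosides, stood at 44.5 and 44.6 in colonocyte-like cells, with 0 UMIs in goblet-like cells, where 3 UMIs would be 1.65 scaled CPM, and at most 3.09 in the other sums. The pooled ratio of colonocyte-like cells to the other classes was 51.4 (exact 95% interval 23.0 to 142.8). St8sia2 had its lowest level in crypt-like cells, 1.76 and 1.86 against 7.80 to 36.6 elsewhere (-2.76 ± 0.54). St8sia4 was at 9.14 to 33.7 in the epithelial sums and at 225 and 247 CPM in lymphocyte-like barcodes, and the part of such cells in its epithelial count was not tested.

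Fucosylation and α-linked GlcNAc capping set deep crypt secretory-like cells apart in 2 genes. A4gnt, which caps O-glycans with α1,4-linked GlcNAc and is best known from the mucous glands of the stomach, stood at 44.5 and 53.3 scaled CPM in deep crypt secretory-like cells and at 0 to 4.68 in the other sums. The pooled ratio was 16.1 (exact 95% interval 10.1 to 26.7) and the log2 difference 3.99 ± 0.33 (adjusted p = 3.72e-23, edgeR). Fut4, an α1,3-fucosyltransferase of Lewis X synthesis, stood at 187 and 154 in the same cells, 76.8 and 67.9 in crypt-like, 56.1 and 39.5 in goblet-like and 41.1 and 29.7 in colonocyte-like cells (1.76 ± 0.16).

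Fut2, the α1,2-fucosyltransferase of secreted H antigen, was nearly level in the secretory classes under TMM scaling. It stood at 838 and 574 scaled CPM in goblet-like and 801 and 602 in deep crypt secretory-like cells (difference -0.00 ± 0.15, and -0.34, past the threshold, without TMM scaling), against 431 and 210 in colonocyte-like and 237 and 194 in crypt-like cells. Fut8, which fucosylates the core of N-glycans, had a narrower range, 151 and 126, 149 and 147, 75.2 and 49.1, and 104 and 107 in the same order. In colonocyte-like cells 4 of 7 fucosyltransferase genes were lower and 0 higher, 57.1% called against 39% of all genes.

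Among the sulfotransferases Chst4 had the most UMIs, 992. Chst4, which places sulfate on GlcNAc, stood at 180 and 122 scaled CPM in goblet-like, 188 and 159 in deep crypt secretory-like, 36.3 and 31.6 in crypt-like and 4.45 and 5.71 in colonocyte-like cells. The secretory classes overlapped, and the log2 difference was 2.33 ± 0.19 in goblet-like, 2.57 ± 0.18 in deep crypt secretory-like and -4.34 ± 0.30 in colonocyte-like cells (adjusted p = 8.02e-31, edgeR). Chst5, an enzyme of the same activity, had 57 UMIs and stood at 0 to 9.40 scaled CPM, with the replicate 2 value the higher one in every class, and passed no test. Chst2, of the same activity, was higher in both secretory classes (1.04 ± 0.31 and 0.86 ± 0.30), the former call being lost without TMM scaling (adjusted p = 0.0519, edgeR), and Chst10, which sulfates the HNK-1 glycan, was higher in colonocyte-like cells (0.86 ± 0.23).

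The secretory classes were then compared with each other. Of 68 members 17 differed, 10 higher and 7 lower in goblet-like than in deep crypt secretory-like cells, against a background of 14.3% of all genes tested, 7.78% higher and 6.51% lower. The medians were 0.04 over members and -0.04 over all genes. B4galt2 (5.82 ± 0.50), Gcnt3 (1.83 ± 0.16), St6gal1 (1.65 ± 0.18), St3gal4 (1.09 ± 0.20) and B3gnt2 (1.03 ± 0.32) were higher in goblet-like cells. A4gnt (-3.83 ± 0.49), B3gnt9 (-3.27 ± 0.81), Fut4 (-1.81 ± 0.23), B4galt4 (-1.60 ± 0.29), B3gnt7 (-1.37 ± 0.16) and St3gal6 (-1.08 ± 0.17) were higher in deep crypt secretory-like cells. These 11 genes were picked for a fold of at least 2 and the same sign in both libraries, so that the shared sign is no separate result. The call of B3gnt2 was lost under 5 of the alternatives tried and that of St3gal4 under 1, the model without the library block. The call of B3gnt9 was lost when the goblet-like cluster led by Scin was counted as deep crypt secretory-like (-1.91). Among initiation enzymes 1 of 13 differed, among galactose-adding enzymes 2 of 12 and among GlcNAc-adding enzymes 5 of 6, and without TMM scaling 3 of 13, 5 of 12 and 3 of 6. Without that scaling the counts over all members turned to 6 higher and 14 lower, with the median of all genes moved by -0.35, and the calls of B3gnt2, B3gnt3, Chst10 and Gcnt1 were lost. No member call turned in sign.

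**Figure D4:**
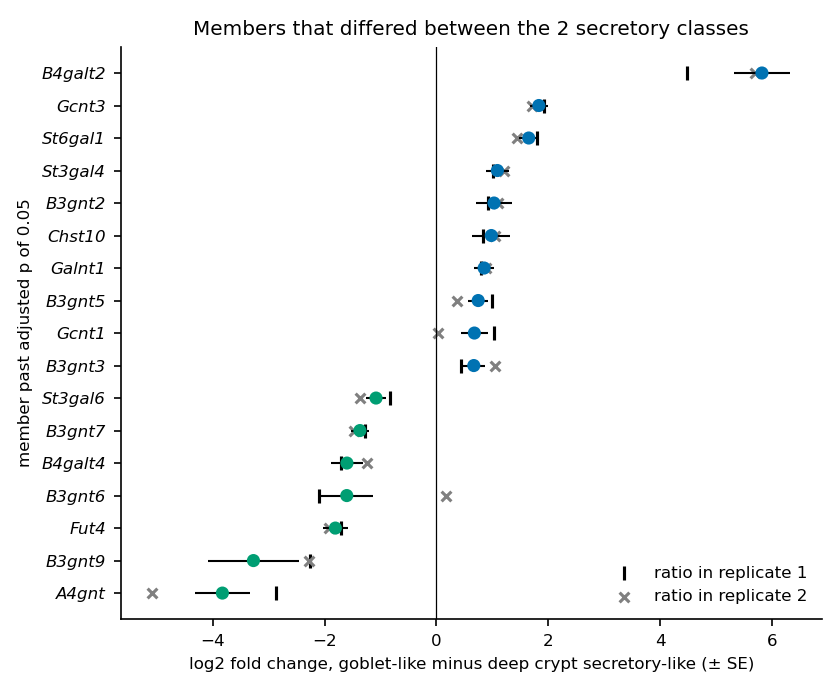
Log2 fold change of goblet-like minus deep crypt secretory-like cells for the 17 members past an adjusted p of 0.05, with the standard error as a line, blue for higher in goblet-like and green for higher in deep crypt secretory-like cells. Bars and crosses give the ratio within replicate 1 and replicate 2 with a prior count of 2 added, which pulls genes with few UMIs toward 0, and B3gnt6 is the gene whose replicates lie on opposite sides of 0.

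Levels also varied among the clusters joined in a class. Within goblet-like cells, B4galt2 stood at 127 and 112 scaled CPM in the cluster led by Clca1, Fcgbp and Zg16 and at 32.0 and 36.8 in the cluster led by Scin, Sval1 and Best2. Gcnt3 was also higher in the former (1419 and 904 against 933 and 671), and Fut4 was lower (25.5 and 22.4 against 79.2 and 57.3). St6gal1 ran the other way, at 475 and 310 in the former against 612 and 467 in the latter. Within colonocyte-like cells, St8sia5 stood at 56.5 and 55.2 in the cluster led by Car4, Aqp8 and Clca4b and at 4.07 and 0 in the cluster led by Reg3b, Car1 and Fabp2. B3gnt7 (507 and 439 against 75.3 and 38.6) and B4galt1 (627 and 417 against 169 and 130) followed the same arrangement. Within crypt-like cells, the mitotic cluster had more Fut4 (136 and 110 against 59.97 and 53.7), Gcnt3 (106 and 79.5 against 26.7 and 11.0) and Chst4 (89.8 and 102 against 21.5 and 8.54) than the cluster led by Csrp2. These cluster values are descriptions without a test.

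The enzymes use activated sugars and sulfate, and genes for making and transporting these donors were described as a list of 40. The share called was 37.5% in goblet-like, 62.5% in deep crypt secretory-like, 40% in crypt-like and 57.5% in colonocyte-like cells and 32.5% between the secretory classes, against 16.3%, 23.8%, 27%, 39% and 14.3% of all genes. In deep crypt secretory-like cells 21 were higher and 4 lower. Sialic acid genes led, with Gne, the first enzyme of sialic acid synthesis, at 614 and 511 scaled CPM there against 106 to 258 elsewhere (1.64 ± 0.13). Nanp, a later enzyme of that route, stood at 46.9 and 25.3 against 2.97 to 25.2 elsewhere (2.03 ± 0.29). Nans (1.22 ± 0.12), Cmas (0.64 ± 0.13) and the Golgi transporter gene Slc35a1 (1.38 ± 0.13), which act on the same route, were also higher. Ugdh (-2.37 ± 0.22) and Slc35d1 (-1.86 ± 0.29), whose roles follow with the colonocyte-like cells, were the lowest.

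In colonocyte-like cells 8 donor genes were higher and 15 lower. Ugdh, which makes UDP-glucuronate for glycosaminoglycans and glucuronidation, stood at 469 and 295 scaled CPM there against 22.6 to 142 elsewhere (2.86 ± 0.14). The nucleotide sugar transporter gene Slc35d1 (2.47 ± 0.19), the sulfate transporter gene Slc26a2 (2.27 ± 0.11, at 2020 and 1341 against 265 to 402 elsewhere), the sulfate donor synthase gene Papss2 (1.33 ± 0.13) and Uxs1 (1.13 ± 0.22), which makes UDP-xylose, were higher too. Nans (-1.92 ± 0.15) and Nanp (-2.58 ± 0.43) were lower. In goblet-like cells 10 donor genes were higher and 5 lower, with Ugdh at -1.27 ± 0.21 and Uxs1 at -1.36 ± 0.30, and in crypt-like cells 2 were higher and 14 lower, with Mpi, which feeds the mannose donor route, at -1.19 ± 0.22. Without TMM scaling these last counts turned to 5 and 10 in goblet-like and 11 and 9 in crypt-like cells. Between the secretory classes 3 donor genes were higher and 10 lower in goblet-like cells, among them Gne (-1.72 ± 0.17) and Nanp (-1.68 ± 0.38), and 0 and 20 without TMM scaling.

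**Figure D5:**
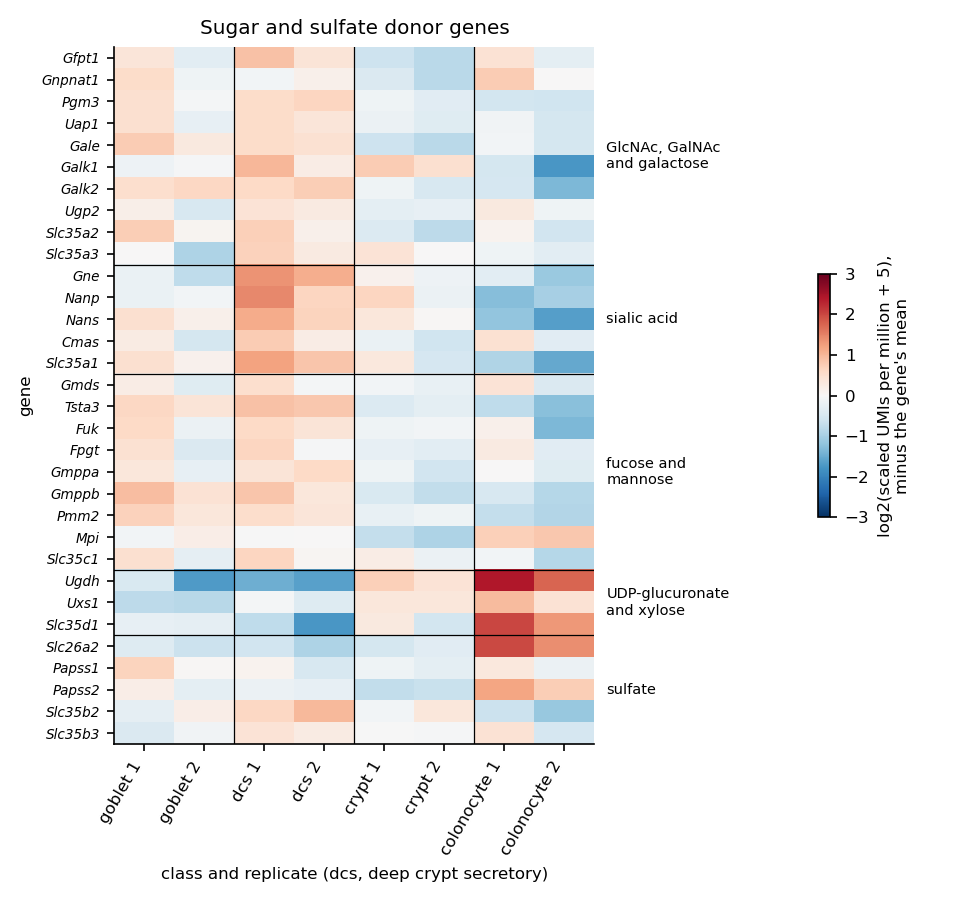
Relative level of 32 of the 40 donor genes in the 8 sums, as log2 of scaled CPM plus 5 minus the mean of the gene, grouped by the donor they serve. Sialic acid genes are red in deep crypt secretory-like (dcs) cells, and Ugdh, Slc35d1, Slc26a2 and Papss2 are red in colonocyte-like cells.

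A further list held 60 other glycan enzymes whose symbols the family names do not cover, of which 53 were tested. The share called was near the background in goblet-like cells (17% against 16.3% of all genes) and between the secretory classes (15.1% against 14.3%), below it in crypt-like (20.8% against 27%) and above it in deep crypt secretory-like (30.2% against 23.8%) and colonocyte-like cells (45.3% against 39%). In colonocyte-like cells 10 were higher and 14 lower. Mgat4c, named as a relative of N-glycan branching enzymes, stood at 2388 and 1651 scaled CPM there against 45.7 to 250 elsewhere (4.12 ± 0.12). Its relative Mgat4a was also higher (2.07 ± 0.13), as was Xylt1, which starts glycosaminoglycan chains (2.34 ± 0.32). St6galnac2, a sialyltransferase of O-glycan cores (-2.31 ± 0.43), and Hs3st1, a heparan sulfate sulfotransferase (-1.76 ± 0.35), were lower. In goblet-like cells 4 were higher and 5 lower. Abo, the blood group transferase, stood at 135 and 145 against 14.4 to 70.2 elsewhere (2.27 ± 0.19). A4galt, the globotriaosylceramide synthase, was higher by 1.23 ± 0.45. Mgat4c and the ganglioside enzyme B4galnt1 were lower (-1.10 ± 0.16 and -1.26 ± 0.43). The Mgat4c value is against a mean that holds the colonocyte-like level. For Mgat4c, goblet-like cells (142 and 122) lay above deep crypt secretory-like cells (45.7 and 60.4). In deep crypt secretory-like cells 11 were higher and 5 lower, with St6galnac2 at 1.60 ± 0.32, Hs3st1 at 1.58 ± 0.27, Mgat4a at -1.14 ± 0.16 and Mgat4c at -2.95 ± 0.18. In crypt-like cells 4 were higher and 7 lower, with B4galnt1 at 1.30 ± 0.30, St6galnac2 at 1.09 ± 0.32 and Abo at -1.10 ± 0.23, and without TMM scaling these counts turned to 9 and 4. Between the secretory classes 3 were higher and 5 lower in goblet-like cells, with Mgat4c at 1.39 ± 0.21, Abo at 1.33 ± 0.23, St6galnac2 at -1.49 ± 0.42 and B3galnt2, an enzyme of the dystroglycan glycan, at -1.92 ± 0.55.

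Levels alone were also ranked, without a test. In both libraries 42 of the 68 members had their highest level in the same class, 14 in colonocyte-like, 13 in deep crypt secretory-like, 12 in goblet-like and 3 in crypt-like cells. Over all 8069 genes tested 53.5% had the same highest class in both libraries. The share was 20.6% of members against 21.4% of all genes in colonocyte-like, 19.1% against 11% in deep crypt secretory-like, 17.6% against 9% in goblet-like and 4.41% against 12.1% in crypt-like cells. Members whose values in both libraries lay above every value of the other classes numbered 12 in colonocyte-like cells (background 14.7%), 8 in deep crypt secretory-like cells (6.18%), 6 in goblet-like cells (5.38%) and 1, Fut10 with 50 UMIs, in crypt-like cells (7.83%). Those whose values lay below every other value numbered 10 in colonocyte-like (12.9%), 8 in crypt-like (6.69%), 6 in goblet-like (4.49%) and 0 in deep crypt secretory-like cells (5.22%).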

How the data were processed

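Cells were captured by inDrop and their RNA amplified by CEL-Seq, which reads the 3′ end of transcripts, per the labels' protocols. The authors deposited whole-number UMI counts per gene and barcode, without normalization, with GRCm38 and GRCh38 as builds per the submitters' processing notes. For aligner, annotation, strand setting and barcode filter, nothing was given in the sources used here, and counts of overlapping or near-identical genes are uncertain.

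In each library the 5% of barcodes with the highest simulated-doublet score were left out, 87 and 33. Clustering used 12674 genes (1500 variable genes, 30 principal components, 15 neighbours, Leiden resolution 1), and 12830 other genes, with all members and pathway genes, were kept for testing. Related genes can fall on both sides of that division. Clusters were named from marker lists by a score (at least 0.75, with 3 detected markers and at least 1 marker, and no fewer than of any other class, among the 15 leading genes), settled after the clusters were seen. Of the barcodes 615, in clusters with medians of 1544 and 1704 UMIs, stayed unnamed, since no marker of their best class was among the leading genes. No barcode profile was shared between the libraries.

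UMIs were summed per class and library (8 sums), and genes with at least 20 UMIs were tested with edgeR 4.0.16 (quasi-likelihood, TMM, library as a block, 3 residual degrees of freedom, Benjamini-Hochberg adjustment over 8069 genes). The pairing comes from construction, since every class was drawn from the same libraries. Pooled ratios have exact 95% intervals that cover counting error only. On simulated counts for 7949 genes in the goblet-like comparison the test recovered 2 of 48 genes changed 1.5-fold, 22 of 50 changed 2-fold, 40 of 48 changed 4-fold and 36 of 50 changed 8-fold, with 5 false calls. That simulation gave unchanged genes the same mean level in all classes, the same spread setting for all genes, and no library or composition effect. Its recovery and false calls are therefore no error rates for these data. Python 3.11.15 and R 4.3.3 were used, and DESeq2 1.42.0 for alternatives.

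The members, markers, pathway lists and tests were chosen with earlier results of these data known. Named members are, per comparison, up to 6 of the highest and 4 of the lowest past the threshold with a fold of at least 2 and the same sign in both libraries, plus 14 enzymes of the main mucin steps and those at the UMI minimum. From the pathway lists up to 2 of the highest and 2 of the lowest are named per comparison. Other members were named after their values were seen.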

Additional observations from a re-analysis of the deposited data

How the results depend on the processing

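Over all genes, leaving the replicate block out of the model gave 663 calls in goblet-like cells and not 1313, 1134 and not 1921 in deep crypt secretory-like, 1274 and not 2180 in crypt-like cells, and 472 and not 1153 between the secretory classes. DESeq2 in place of edgeR gave 815, 1199, 1301 and 701. Among members the fit without the block gave 17 calls in goblet-like and 19 in crypt-like cells and 9 between the secretory classes, and DESeq2 gave 23 in deep crypt secretory-like cells. Without TMM scaling, an alternative chosen after seeing the data, 1740 genes differed between the secretory classes, 21.8% of them higher in goblet-like cells and not 54.5%. The share of higher calls went from 61.1% to 33.5% in goblet-like, 56.1% to 73.8% in deep crypt secretory-like, 50.5% to 77.6% in crypt-like and 52.2% to 34.2% in colonocyte-like cells. Of 661 values that the alternatives gave for 42 named member results, 602 kept their direction and side of the threshold or moved by less than the spread between libraries, 22 lost the call, and 36 ratios within 1 library moved by more. The 1 that turned was B4galt2 in deep crypt secretory-like cells, at 0.53 when the goblet-like cluster led by Scin was counted among them. Since the fit rests on both libraries, a ratio within 1 library is not independent of it. A move by less than the spread between libraries therefore shows no stability. The lost calls concerned St8sia5 in goblet-like, Gcnt2 and B4galt2 in deep crypt secretory-like and B4galt2 in colonocyte-like cells, and St3gal4, B3gnt2 and B3gnt9 between the secretory classes. Of all 147 member calls in the 5 comparisons, 22 were lost and 18 gained without TMM scaling, Galnt6 and Chst2 in goblet-like cells among those lost, and 3 were lost and 3 gained with DESeq2 size factors, Galnt6 in deep crypt secretory-like cells among those lost. The cause was not tested. With 1 library left out no residual degrees of freedom remain, so that the ratios within 1 library have no test and no count of calls. Members with under about 100 UMIs rest on few counts per sum, and a difference under 2-fold was often not detectable at this depth.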
